A study of Homo sapiens with 4 samples.

Results

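H3K27ac HiChIP pairs anchor regions that were ligated to each other in fixed nuclei and pulled down with an antibody against acetylated lysine 27 of histone H3, a mark of active promoters and enhancers. Pairs whose anchor midpoints lay 1 to 2 Mb apart, the longest distances kept in the deposited filtered loop tables, were taken from HCT116, LS513, SW480 and SW620, 4 human lines of colorectal cancer. They numbered 15284 pairs with 17038 paired-end tags (PETs), of 184225 filtered pairs with 469998 PETs in all. HCT116 gave 2826 of them, LS513 7324, SW480 247 and SW620 4887. A PET is 1 sequenced ligation product joining both anchors. All 4 lines came from a cell bank and were labelled untreated, with no modification named, and each had 1 library, so that no difference between lines has a replicate check and no test across lines was possible. SW480 and SW620 are known as lines from a primary tumour and a later metastasis of the same person.

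Contacts over such distances reach beyond most enhancer-promoter loops, which usually form inside one topological domain. In proximity ligation data the frequency of contact falls with distance on the same chromosome, so that pairs this far apart mostly rest on single ligation products. Pairs that stand above that fall can join distant active regions. They can also join copies of one sequence, where a read may be placed at either copy.

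Several of the strongest pairs joined genes with a close copy at the other end. MZT2B and MZT2A encode 2 near-identical proteins of the gamma-tubulin ring complex, which starts microtubules. DGCR6 and DGCR6L are copies in the repeats that flank the region deleted in DiGeorge syndrome. Their promoters are shown because they let a reader see how alike the starts of the named genes are. They come from RefSeq (GRCh38.p14), run from 250 bases before to 50 bases after the gene start, 5′ to 3′ on the gene's strand, and carry in capitals the letters that differ from, or have no partner in, the other promoter.
MZT2B: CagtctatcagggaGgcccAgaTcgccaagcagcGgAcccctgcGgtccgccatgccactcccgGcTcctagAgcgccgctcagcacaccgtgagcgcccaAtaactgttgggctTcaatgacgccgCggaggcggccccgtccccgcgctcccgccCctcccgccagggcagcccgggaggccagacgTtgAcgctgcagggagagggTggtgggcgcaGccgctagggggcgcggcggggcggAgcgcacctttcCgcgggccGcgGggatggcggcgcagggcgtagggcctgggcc
MZT2A: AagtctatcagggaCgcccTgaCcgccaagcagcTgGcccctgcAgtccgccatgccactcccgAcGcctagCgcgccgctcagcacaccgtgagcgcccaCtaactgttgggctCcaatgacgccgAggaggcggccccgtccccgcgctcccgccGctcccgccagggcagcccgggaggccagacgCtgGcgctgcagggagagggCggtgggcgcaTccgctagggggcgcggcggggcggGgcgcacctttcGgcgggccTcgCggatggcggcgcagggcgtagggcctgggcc
DGCR6: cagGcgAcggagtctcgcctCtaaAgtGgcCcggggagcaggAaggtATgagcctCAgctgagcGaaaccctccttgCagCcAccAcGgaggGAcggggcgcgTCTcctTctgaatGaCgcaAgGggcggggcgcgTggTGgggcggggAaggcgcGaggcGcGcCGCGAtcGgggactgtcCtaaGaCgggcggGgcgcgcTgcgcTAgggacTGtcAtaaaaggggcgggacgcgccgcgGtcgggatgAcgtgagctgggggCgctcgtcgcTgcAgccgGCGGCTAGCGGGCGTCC
DGCR6L: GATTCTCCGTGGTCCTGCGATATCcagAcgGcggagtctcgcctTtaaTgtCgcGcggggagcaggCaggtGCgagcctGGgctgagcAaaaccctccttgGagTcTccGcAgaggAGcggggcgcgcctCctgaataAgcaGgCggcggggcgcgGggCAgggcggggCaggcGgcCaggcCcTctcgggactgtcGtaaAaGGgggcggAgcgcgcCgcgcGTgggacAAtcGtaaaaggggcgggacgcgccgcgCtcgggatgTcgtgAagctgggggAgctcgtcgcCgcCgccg
The MZT2B and MZT2A promoters had 278 of 300 aligned positions in common (92.7%), with a longest shared run of 31 bases. DGCR6 and DGCR6L had 228 of 273 aligned positions in common (83.5%), with a longest shared run of 23 bases. SLC3A2 and VEGFB, at the ends of a pair described further on and not copies of each other, had 162 of 267 aligned positions in common (60.7%) and a longest run of 10. Among 352656 pairs of RefSeq genes 1 to 2 Mb apart, 292 (0.0828%) shared a promoter run of at least 20 bases on either strand and 118 (0.0335%) one of at least 50 bases. The length of 20 was chosen after the runs of the named genes had been seen. The promoters are not the anchors themselves, which are several kb wide and in another build (hg19).

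The pairs carried a small part of the contacts in every line, and the part was smallest in SW480. They held 3.78% of the filtered PETs in HCT116 (3085 of 81579, exact 95% interval 3.65 to 3.91), 3.76% in LS513 (8352 of 222113, 3.68 to 3.84), 3.51% in SW620 (5345 of 152421, 3.41 to 3.60) and 1.84% in SW480 (256 of 13885, 1.63 to 2.08). The HCT116 share was 1.01 times the LS513 share (0.965 to 1.05), so that these libraries did not differ beyond counting error. The SW480 share was 0.488 times that of HCT116 (0.428 to 0.554), 0.490 times that of LS513 (0.431 to 0.555) and 0.526 times that of SW620 (0.462 to 0.596). At anchors that overlapped an anchor in all 4 lines the same ratios were 0.694, 0.652 and 0.695. The intervals are exact (Clopper-Pearson, or conditional for a ratio), cover counting error only and treat PETs as independent molecules. The lower share of SW480 was not confined to this distance. At 500 kb to 1 Mb SW480 held 3.28% of its filtered PETs, where the other lines had 5.56 to 6.04%. At 100 to 500 kb it held 25.5%, below their 29.6 to 31.6%. At 5 to 100 kb SW480 was instead the highest, at 69.3% beside 58.6 to 60.7%. SW480 also differed in depth and in anchors, with 9177 anchors against 21770 to 24255 in the other lines, and their part in its lower share was not tested.

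The number of PETs fell across the interval. From the bin at 1.0 to 1.1 Mb to the bin at 1.9 to 2.0 Mb it went from 446 to 181 in HCT116, from 1351 to 506 in LS513, from 880 to 316 in SW620 and from 46 to 22 in SW480. The fall was not even. From the bin at 1.2 to 1.3 Mb to the next, PETs went from 963 to 1012 in LS513 and from 606 to 688 in SW620. The number of pairs did not rise there, at 846 and 793 in LS513 and 563 and 562 in SW620. The second bin held the strongest pair of each line, with 61 PETs in LS513 and 44 in SW620. PETs lay on both sides of the limits. In the 50 kb on either side of 1 Mb LS513 had 791 PETs outside and 693 inside, and on either side of 2 Mb it had 243 inside and 222 outside in the unfiltered table. HCT116 had 291 and 244 PETs around the lower limit and 90 and 92 around the upper one. SW480 had 24 and 23, then 13 and 4. SW620 had 476 and 460, then 159 and 151. Pairs 2 to 3 Mb apart, which the filtered tables leave out, held 1302 PETs in HCT116, 3732 in LS513, 2248 in SW620 and 136 in SW480.

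**Figure D1:**
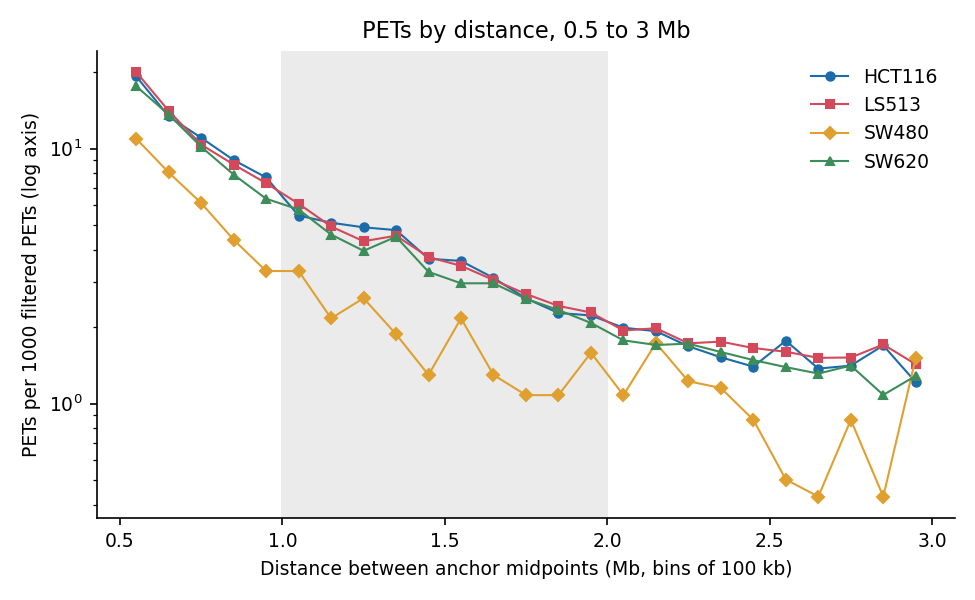
PETs per 1000 filtered PETs of each library (log axis) against the distance between anchor midpoints in bins of 100 kb, with 1 to 2 Mb shaded and 1 library per line. HCT116, LS513 and SW620 lie close together and are lower at the end of the shaded interval than at its start. PETs, though not the number of pairs, rise at 1.3 to 1.4 Mb in LS513 and SW620. SW480 lies below the other lines in the shaded interval.

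Most of the pairs were seen once. At least 2 PETs were held by 124 of 2826 pairs in HCT116 (4.39%, 3.66 to 5.21), 635 of 7324 in LS513 (8.67%, 8.04 to 9.34), 300 of 4887 in SW620 (6.14%, 5.48 to 6.85) and 9 of 247 in SW480 (3.64%, 1.68 to 6.80). Among all filtered pairs the percentages were 33.5, 43.1, 38.1 and 35.7 in the same order. At 500 kb to 1 Mb they were 9.19, 18.2, 12.4 and 8.29. The share of pairs 1 to 2 Mb apart with 2 or more PETs was thus below that of the whole table in each library. Depth enters these shares. With every library brought by calculation to the PETs of SW480, the expected shares were 1.84% in HCT116, 1.56% in LS513 and 1.28% in SW620, beside 3.64% in SW480. SW480 also stood highest at that depth in shorter pairs. At 500 kb to 1 Mb the expected shares were 3.08%, 2.95% and 2.03%, beside 8.29% in SW480. At 5 to 100 kb they were 24.6%, 25.2% and 23.7%, beside 46.0%. The SW480 value at 1 to 2 Mb rests on 9 pairs.

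The anchor pairs that could have been joined at this distance were rarely seen. Of all pairs of anchors 1 to 2 Mb apart, 1.12% were occupied in HCT116, 2.85% in LS513, 1.48% in SW620 and 0.614% in SW480. At 5 to 100 kb the occupied shares were 40.3%, 56.8%, 41.5% and 34.5%.

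The authors' deposited FDR column separated these pairs by PET count alone. Every pair 1 to 2 Mb apart with 2 or more PETs had an FDR under 0.001, and single PETs lay at 0.0129 to 0.0131 in HCT116, 0.0147 to 0.0186 in LS513, 0.0106 to 0.0123 in SW620 and 0.0157 to 0.0177 in SW480. An FDR under 0.01 therefore selected the same 124, 635, 300 and 9 pairs, against 12.8, 18.2, 17.2 and 14.5 percent of all filtered pairs. An FDR under 0.05 took in all pairs of this distance, single PETs included, against 54.9, 51.3, 56 and 45.1 percent of all filtered pairs.

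**Figure D2:**
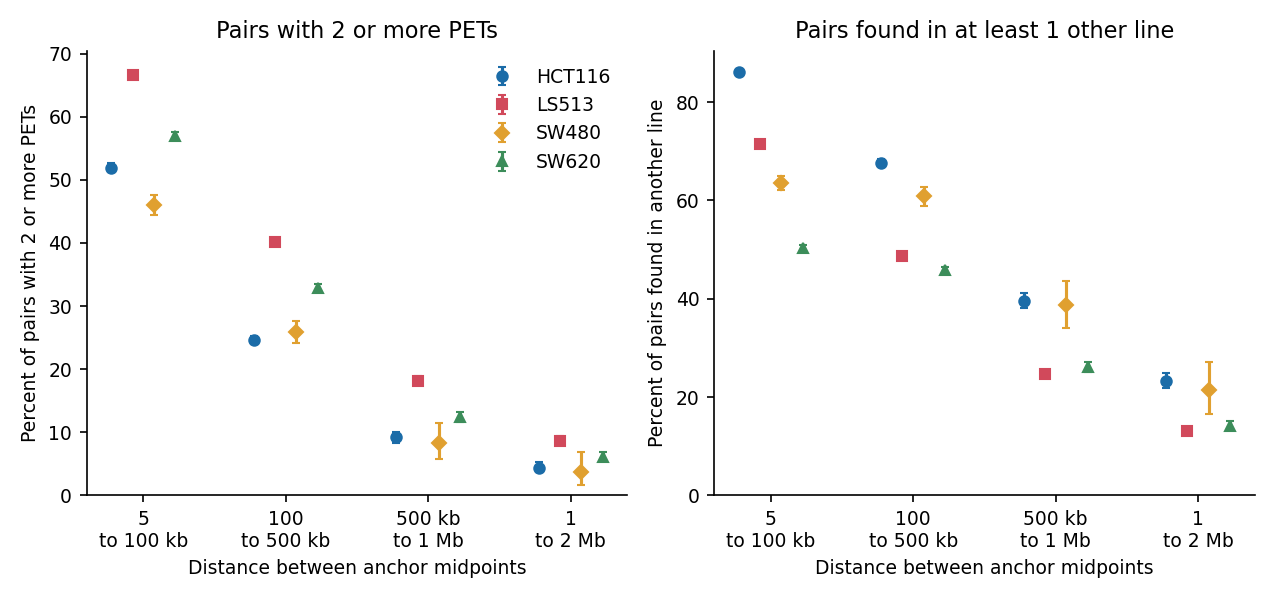
Percent of pairs with 2 or more PETs (left) and percent of pairs found in at least 1 other line (right) by distance between anchor midpoints, for the 4 libraries, with exact 95% intervals for counting error. Both percentages are lowest at 1 to 2 Mb in each line.

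Anchors of these pairs were slightly wider than those of pairs 5 to 100 kb apart. The median anchor width, with an anchor counted in each of its pairs, in HCT116, LS513, SW620 and SW480 was 5.68, 5.79, 6.77 and 7.91 kb. At 5 to 100 kb it was 5.51, 5.34, 6.01 and 7.49 kb. Pairs with 2 or more PETs had wider anchors, with medians of 6.84, 7.15, 9.92 and 11.7 kb in the same order, against 5.65, 5.68, 6.62 and 7.88 kb for single PETs. They also had stronger anchors. The median number of PETs joining an anchor with itself, here called its own PETs, was 80 against 49 in HCT116, 180 against 85 in LS513, 99 against 48 in SW620 and 53.5 against 18 in SW480. These widths and own PETs moved with the number of PETs, and their part in it was not tested. Pairs with 5 or more PETs, a limit set after the values had been seen, had medians of 4.77 kb in HCT116 (9 pairs), 5.20 kb in LS513 (18 pairs) and 6.18 kb in SW620 (7 pairs).

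The pairs with 5 or more PETs numbered 34, with 564 PETs. There were 9 in HCT116, 18 in LS513, 7 in SW620 and 0 in SW480, and they stood at 25 places once pairs overlapping at both anchors were joined across lines. Both anchors lay at 28 to 34 Mb of chromosome 6, the region of the major histocompatibility complex, in 8 of the 34 pairs, at 6 places, against 1.36 percent of all filtered pairs of 5 or more PETs in the 4 lines. By line this was 1.76 percent in HCT116, 1.39 in LS513, 1.16 in SW620 and 0.931 in SW480. That region was chosen after the values had been seen. Some of the 34 pairs, none of them among these 8, held more PETs than either anchor with itself. Among all filtered pairs of 5 or more PETs this was the case for 0.325 percent in HCT116, 0.155 in LS513, 0.443 in SW620 and 0.931 in SW480. At 1 to 2 Mb it was the case for 1 of 9 pairs in HCT116, 2 of 18 in LS513 and 3 of 7 in SW620. The comparison was chosen after the values had been seen and rests on 6 pairs.

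**Figure D3:**
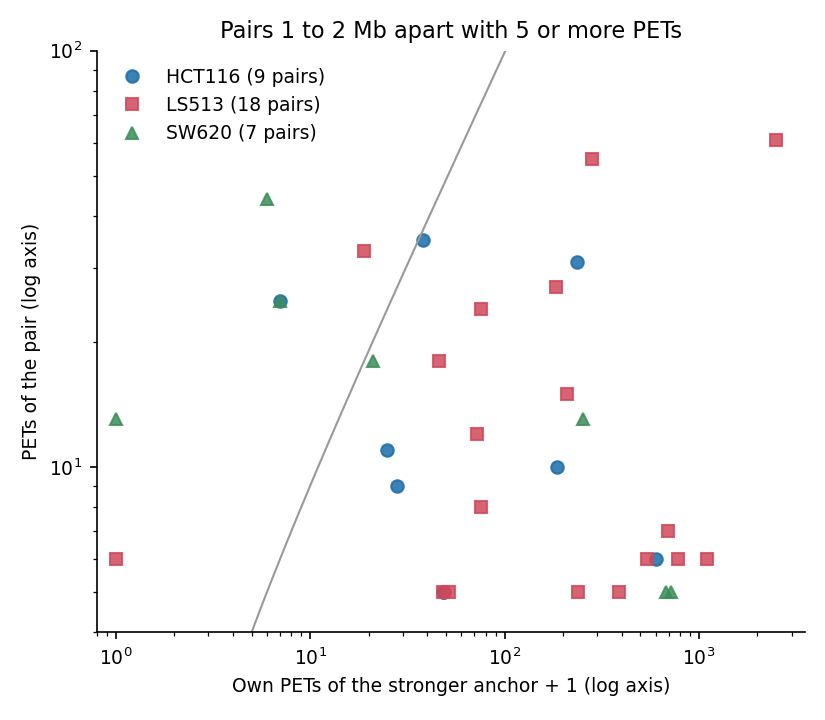
PETs of each pair 1 to 2 Mb apart with 5 or more PETs (log axis) against the own PETs of its stronger anchor plus 1 (log axis). The grey line marks equal numbers, and 6 of the 34 pairs lie above it, 3 of them in SW620.

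Gene names below are background on well-known hg19 places at the anchors, given after the positions had been seen. All 37 genes named at pairs, hubs and windows stood on the stated chromosome in the RefSeq table, and in all 18 entries with genes at both ends the order and the span were alike there. No hg19 annotation was used, so no exon, intron or UTR is given. In these descriptions normalised PETs are PETs per 1000000 filtered PETs of the library. A count of 0 allows up to 36.8 normalised PETs in HCT116, 13.5 in LS513, 19.7 in SW620 and 216 in SW480, the level of 3 PETs. SW480 cannot show most of these pairs at that limit, and for most of them it had no anchor at either end.

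Pairs between gene copies led in HCT116. The pair from MZT2B (chr2:130937909-130942079) to MZT2A (chr2:132247742-132252582), whose promoters are printed above, held 35 PETs in HCT116, 18 in LS513, 2 in SW620 and 0 in SW480. It was highest in HCT116 at 429 normalised PETs, with 81.0 in LS513 and 13.1 in SW620. Within 100 kb of both of its anchors HCT116 had 1 other possible pair and 0 seen, and neither anchor had another partner at this distance. Its own PETs were 37 and 33 in HCT116, about as many as the pair held.

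SUZ12 encodes a core subunit of the Polycomb complex PRC2, and SUZ12P1 is its pseudogene in the repeats around NF1. Their pair (chr17:29058010-29059968 and chr17:30263384-30265366) held 25 PETs in HCT116, 3 in LS513 and 0 in SW480 and SW620. Its anchors had 6 own PETs each in HCT116, fewer than the pair, and SW480 and SW620 had no anchor at either end. The pair was isolated, with 0 neighbouring pairs of 14 possible ones.

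PDCD6, which encodes a calcium-binding protein of membrane repair and cell death, was joined to its pseudogene PDCD6P1. The pair (chr5:269126-272790 and chr5:1632319-1635613) held 11 PETs in HCT116, 33 in LS513, 25 in SW620 and 0 in SW480. At 135, 149 and 164 normalised PETs it was nearly level between these 3 lines. Of the pairs with 2 or more PETs in at least 3 lines it held most, with 69 PETs in all. No neighbouring pair was seen among 9 possible ones in HCT116 and LS513 and 26 in SW620. Its anchors had 24 and 6 own PETs in HCT116, 18 and 9 in LS513 and 4 and 6 in SW620. The pair thus held more PETs than either anchor with itself in LS513 and SW620, and not in HCT116.

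DGCR6 and DGCR6L were joined by 9 PETs in HCT116, 4 in LS513, 18 in SW620 and 0 in SW480. The anchors in SW620 were chr22:18888768-18895352 and chr22:20307084-20310513. In normalised PETs SW620 stood at 118 and HCT116 at 110, above LS513 at 18.0.

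SW620 held 2 more pairs nearby that no other line showed. The pair from chr22:18950884-18955294, at which no gene is named, to chr22:20254361-20265154 at RTN4R, the Nogo receptor gene, held 44 PETs in SW620 and 0 in the other 3 lines. Its anchors had 2 and 5 own PETs. HCT116 and LS513 had an anchor at 1 of its ends and SW480 at none. A further pair, chr22:18940589-18944691 to chr22:20269178-20274944, held 13 PETs in SW620 with 0 own PETs at both anchors, and no other line had an anchor at either end. These 3 pairs gave 75 of the 229 PETs of this distance on chromosome 22 in SW620. The part of read placement between repeats in these counts was not tested.

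The class I genes of the major histocompatibility complex and their relatives formed another group. HLA-B presents peptides to T cells, HLA-H is a class I pseudogene, MICA and MICB encode stress ligands of the NKG2D receptor, and MICD is a pseudogene of that family. MICD and MICB (chr6:29931320-29946630 and chr6:31460961-31467047) were joined by 31 PETs in HCT116, 55 in LS513, 0 in SW620 and 0 in SW480. SW620 had anchors at both ends, and its count of 0 allows up to 19.7 normalised PETs, against 380 in HCT116 and 248 in LS513. SW620 instead held 13 PETs between MICD and MICA (chr6:29931447-29946630 and chr6:31366407-31372162), where HCT116 had 4 and LS513 3. HCT116 and LS513 thus had more PETs from MICD to MICB, and SW620 from MICD to MICA.

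HLA-H and HLA-B (chr6:29853820-29857193 and chr6:31323278-31327993) were joined by 27 PETs in LS513, 5 in HCT116 and 0 in SW620 and SW480, with an anchor at only 1 end in SW620. This was 122 normalised PETs in LS513 and 61.3 in HCT116, with no interval calculated for these counts. The promoters of MICA and MICB, at the right ends of the MICD pairs, had 86.6% of aligned positions in common. The counts of pairs between copies are uncertain, and the part of read placement in them was not tested.

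Other strong pairs had no gene copy named at their ends. The pair with most PETs in any library joined chr7:25894340-25899725, with no gene named, to HOXA9 (chr7:27185415-27231039). HOXA9 belongs to the HOXA cluster, whose transcription factors set position along the body axis. It held 61 PETs in LS513 and 6 in HCT116, or 275 and 73.5 normalised PETs. SW620 and SW480 had 0 PETs and no anchor at either end. The HOXA anchor had 2488 own PETs in LS513 and 599 in HCT116. Around this pair LS513 had 8 neighbouring pairs with 16 PETs of 35 possible pairs.

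BCL6, a transcriptional repressor gene, was joined to chr3:188663105-188669230, at which no gene is named. The pair (left anchor chr3:187454224-187470228) held 10 PETs in HCT116, 15 in LS513, 3 in SW620 and 0 in SW480. This was 123 normalised PETs in HCT116, 67.5 in LS513 and 19.7 in SW620. No interval was calculated for these small counts, so no order of the lines is given.

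**Figure D4:**
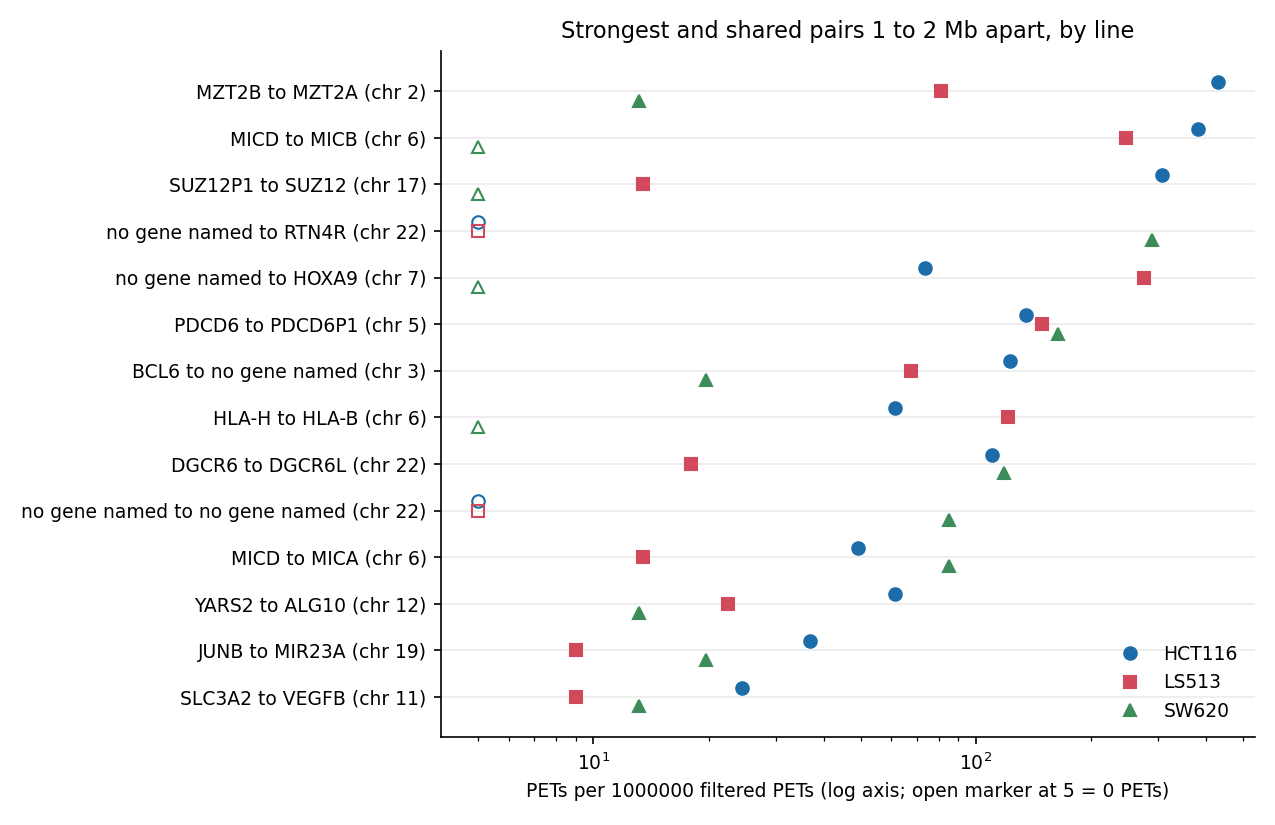
PETs per 1000000 filtered PETs (log axis) of the strongest and the most shared pairs 1 to 2 Mb apart in HCT116, LS513 and SW620, where open markers at 5 stand for 0 PETs. PDCD6 to PDCD6P1 is nearly level in the 3 lines, while the pair at RTN4R is seen in SW620 alone. SW480 is left out because it held 0 PETs at these places.

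SW480 had no pair above 2 PETs at this distance. Its 5 first pairs by FDR, with 2 PETs each, joined WDR33 (mRNA 3′ end processing), NTSR1 (neurotensin receptor), LRRC28 and a place on chromosome 6 to regions with no gene named, and GPRC5A, a retinoic acid induced receptor gene, to ATF7IP, a chromatin regulator gene. In other lines the WDR33 pair and the pair on chromosome 6 held 0 PETs, the NTSR1 pair 1 in SW620, the GPRC5A pair 1 in HCT116 and the LRRC28 pair 2 in HCT116. Counts of 0 to 2 PETs do not separate the lines.

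The 5 strongest pairs held 3.63% of the PETs of this distance in HCT116, 2.39% in LS513, 2.11% in SW620 and 3.91% in SW480. The overall share of PETs at 1 to 2 Mb was 3.64%, 3.67%, 3.43% and 1.77% without them.

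Pairs of this length were found in another line less often than the whole table. A pair counted as found when both of its anchors overlapped those of a filtered pair of the other line by at least 1 bp. This was so in at least 1 other line for 659 of 2826 pairs in HCT116 (23.3%, 21.8 to 24.9), 963 of 7324 in LS513 (13.1%, 12.4 to 13.9), 692 of 4887 in SW620 (14.2%, 13.2 to 15.2) and 53 of 247 in SW480 (21.5%, 16.5 to 27.1). Among all filtered pairs it was 69.7, 49.7, 42.8 and 59.7 percent. Pairs with 2 or more PETs were found in another line in 51.6%, 31.7%, 33.0% and 44.4% of cases. For pairs with 2 or more PETs at 500 kb to 1 Mb it was 74.6%, 45.4%, 48.0% and 67.6%. At 5 to 100 kb it was 94.4%, 81.7%, 61.8% and 72.5%. The share of such pairs found was thus lower at 1 to 2 Mb in each line. In SW480 it rested on 4 of 9 pairs (13.7 to 78.8), an interval overlapping that at 500 kb to 1 Mb (49.5 to 82.6). Such pairs also held unlike numbers of PETs by distance. In LS513 16872 of them held 121694 PETs at 5 to 100 kb, and 635 held 1663 at 1 to 2 Mb. Of pairs with 5 or more PETs, 9 of 9 in HCT116, 13 of 18 in LS513 and 4 of 7 in SW620 were found in another line. Among all filtered pairs with 5 or more PETs in these lines it was 98.6, 92.6 and 77.1 percent. The LS513 library found 485 of the HCT116 pairs (17.2%), and SW480 found 19 of them (0.672%). Anchor positions were often identical between HCT116 and LS513, so that 17.2% of the HCT116 pairs were found with identical anchors in at least 1 line, against 0.0614% of the SW620 pairs. These shares move with the depth of the other library and with how anchors were set.

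There were 9 pairs with 2 or more PETs in at least 3 lines, and 0 with as many in all 4. They included PDCD6 to PDCD6P1, MZT2B to MZT2A, DGCR6 to DGCR6L, BCL6 to its unnamed partner and MICD to MICA, described above, and 3 weaker ones. YARS2, a mitochondrial tRNA synthetase gene, and ALG10, a gene of N-glycan assembly, were joined by 5 PETs in HCT116, 5 in LS513 and 2 in SW620. JUNB, a gene of the AP-1 transcription factor, and the MIR23A cluster were joined by 3, 2 and 3 PETs. SLC3A2, which encodes the heavy chain of amino acid transporters, and VEGFB, an angiogenic growth factor gene, were joined by 2 PETs in each of these lines. In HCT116 the anchors of JUNB and MIR23A had 534 and 875 own PETs, and those of YARS2 and ALG10 had 22 and 47.

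Most anchors of these pairs had a single partner 1 to 2 Mb away, the median in every line, and a few anchors had many. The share with 1 partner was 76.9% in HCT116, 57.7% in LS513, 68.0% in SW620 and 90.6% in SW480. The HCT116 anchors with most partners were at JUNB (13 partners with 16 PETs), RING1, a subunit gene of the Polycomb complex PRC1 (10 partners), and SETD1B, a histone H3 methyltransferase gene (10 partners). In LS513 they were at VEGFB (17 partners with 22 PETs), BBC3, the gene of the pro-apoptotic protein PUMA (17 partners), and CDC42EP1 (14 partners, as many as 1 other anchor).

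In SW620 the anchors with most partners were at TBC1D16, a Rab GTPase activator gene (14 partners with 19 PETs), VEGFB (14 partners with 15 PETs) and ZFTA (12 partners). In SW480 they were at GPRC5A (4 partners), RNF43, the gene of a ubiquitin ligase that restrains Wnt signalling (3 partners), and an unnamed place on chromosome 2, which had 2 partners like 39 other anchors and was taken first of them by its PETs and then by its position. VEGFB was a leading anchor in both LS513 and SW620, and had 9 partners in HCT116 and 1 in SW480. The VEGFB anchor was 34.6 kb wide in LS513 and TBC1D16 48.3 kb wide in SW620. None of the 12 leading anchors stayed among the first 3 of its line when partners were counted per kb of anchor.

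Along the genome the window of 1 Mb with most PETs of these pairs in HCT116 and LS513 lay in the major histocompatibility complex. This window, at 31 to 32 Mb of chromosome 6 with HLA-B, had 79 PETs of pairs 1 to 2 Mb long in HCT116, 221 in LS513, 60 in SW620 and 2 in SW480. Per filtered PETs HCT116 and LS513 did not differ there beyond counting error (ratio 0.973, 0.743 to 1.26), and HCT116 was 2.46 times SW620 (1.74 to 3.50). Without the pair from MICD to MICB the window kept 48 PETs in HCT116, 166 in LS513 and 60 in SW620, and HCT116 was 1.49 times SW620 (1.00 to 2.22) and LS513 1.90 times (1.41 to 2.60). The third window of HCT116, at 12 to 13 Mb of chromosome 19 with JUNB, had 40 PETs in 37 pairs, and that of LS513, at 155 to 156 Mb of chromosome 1 with EFNA1, an ephrin gene, had 106 PETs in 89 pairs. These 2 windows held many weak pairs, with at most 3 and 4 PETs in a pair.

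In SW620 the leading windows were 65 to 66 Mb of chromosome 11, with MALAT1, and 18 to 19 and 20 to 21 Mb of chromosome 22, with DGCR6 and DGCR6L, each with 84 PETs. The window with MALAT1, a gene of an abundant nuclear long non-coding RNA, spread them over 77 pairs. The 2 windows on chromosome 22 held them in 11 pairs each, up to 44 PETs in a pair, out of 140 and 197 filtered PETs there. They hold the opposite ends of mostly the same pairs, since 8 pairs with 81 PETs reached from one window to the other, and are thus not 2 separate results. SW620 was 3.21 times HCT116 (1.81 to 6.13) and 8.16 times LS513 (4.68 to 15.2) at 18 to 19 Mb. Without pairs of 5 or more PETs 9 PETs were left in SW620, and the ratios were 0.963 (0.290 to 3.66) and 0.874 (0.337 to 2.13). In SW480 the first windows were on chromosome 12, with 5 PETs at GPRC5A, 4 at GAPDH and 4 at ATF7IP.

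Across chromosomes, chromosome 6 held more of these PETs than of the other filtered PETs in 3 lines. Its share of the PETs at 1 to 2 Mb was 7.97% in HCT116 against 4.67% of the other PETs (ratio 1.71, exact conditional interval 1.49 to 1.94), 7.53% against 4.49% in LS513 (1.68, 1.55 to 1.82) and 5.58% against 4.15% in SW620 (1.34, 1.19 to 1.51). SW480 had 7.42% against 4.71%, an interval that included 1 (0.942 to 2.48). Without pairs that had an anchor at 28 to 34 Mb the ratios were 1.40, 1.31 and 1.27, all with intervals above 1. Of the 23 chromosomes tested, intervals lay above 1 for 2 in HCT116 (8.7 percent), 4 in LS513 (17.4), 5 in SW620 (21.7) and 1 in SW480 (4.35). They lay below 1 for 4 (17.4), 9 (39.1), 5 (21.7) and 0 (0). No adjustment for the number of chromosomes was made.

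Chromosome 19 held more of these PETs than of the others in LS513 (ratio 1.17, 1.10 to 1.25), SW480 (1.98, 1.01 to 3.51, on 12 PETs) and SW620 (1.21, 1.10 to 1.33). Chromosome 10 was higher in LS513 (1.23) and SW620 (1.20), chromosome 3 in HCT116 (1.23), chromosome 5 in SW620 (1.16) and chromosome X in LS513 (1.28). Chromosomes 8 and 17 were lower in HCT116 (0.771 and 0.805), LS513 (0.742 and 0.856) and SW620 (0.626 and 0.847). Chromosome 20 was lower in HCT116 (0.536) and LS513 (0.695), and chromosome 18 in LS513 (0.701) and SW620 (0.510).

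Several of these calls ended under another way of counting. With each pair counted once, the interval for chromosome 17 included 1 in HCT116 (0.886, 0.771 to 1.01), LS513 (0.965, 0.887 to 1.05) and SW620 (0.964, 0.870 to 1.06). Chromosome 8 then included 1 in HCT116 (0.894, 0.715 to 1.11), and its calls in LS513 and SW620 held. Chromosome 3 in HCT116 stood at 1.10 (0.911 to 1.33), chromosome 5 in SW620 at 1.10 (0.940 to 1.28) and chromosome X in LS513 at 0.965 (0.753 to 1.22). In pairs with 2 or more PETs the call for chromosome 19 was lost in LS513 (1.08, 0.921 to 1.26) and SW620 (0.817, 0.585 to 1.11), and SW480 had 0 such PETs there. The call for chromosome 10 was lost in LS513 (0.864, 0.604 to 1.20) and SW620 (1.08, 0.728 to 1.54), and that for chromosome 18 in LS513 (0.182 to 1.08) and SW620 (0.0401 to 1.20). The calls for chromosome 6 in HCT116, LS513 and SW620 and for chromosome 20 in HCT116 and LS513 held under both ways of counting. So did those for chromosome 8 in LS513 and SW620, and lower shares of chromosome 14 in LS513 and chromosome 9 in SW620. The call for chromosome 14 in LS513 was lost without pairs of 5 or more PETs (0.897, 0.777 to 1.03). It was also lost without pairs that had an anchor at 28 to 34 Mb of chromosome 6 (0.884, 0.766 to 1.02). Without those pairs 6 chromosomes were called lower in LS513, against 9 with all pairs. In pairs with 2 or more PETs, chromosome 20 in HCT116 and chromosome 8 in SW620 each rested on 1 pair of 2 PETs.

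Chromosome 22 in SW620 rested on its 3 strong pairs. Its ratio was 1.45 (1.27 to 1.66) with all pairs, and 1.00 without those of 5 or more PETs. HCT116 and LS513 had 1.01 and 1.02 there.

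**Figure D5:**
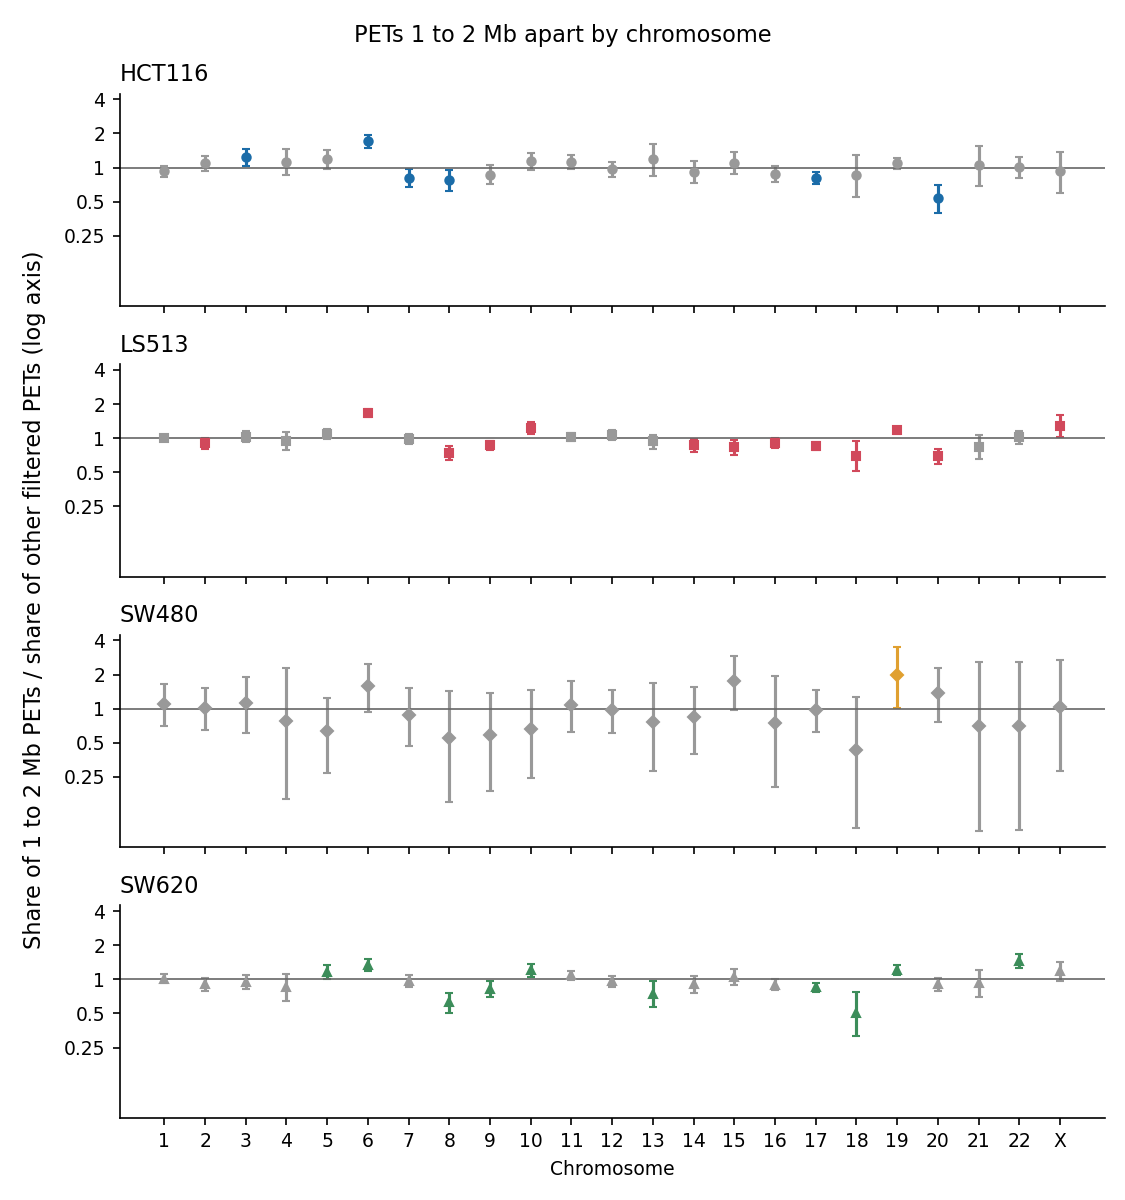
Ratio of each chromosome's share of the PETs at 1 to 2 Mb to its share of the other filtered PETs of the same library (log axis), with exact conditional 95% intervals for counting error. Coloured markers have intervals that leave 1, and chromosome 6 stands above 1 in HCT116, LS513 and SW620.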

How the data were processed

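H3K27ac HiChIP libraries, 1 for each of 4 lines, had been fixed with formaldehyde, cut with MboI and tagged with Tn5 per the labels' protocols. HiC-Pro and the hg19 (GRCh37) build are named in the submitters' processing notes. How loops were called, anchors set and reads from repeats placed was not given in the sources used here. Per anchor pair the authors deposited counts of PETs, as whole numbers. The authors' deposited mango table adds a value between 0 and 1 in a column with no header, taken as an FDR (an adjusted p-value) since it was lower for pairs with more PETs.

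Filtered pairs on chromosomes 1 to 22 and X were kept where anchor midpoints lay 1000000 to 2000000 bp apart. Printed anchor starts are the deposited starts plus 1, on the reading that these count from 0. The unfiltered table gave own PETs and pairs beyond 2 Mb. Intervals are exact at 95 percent. Values at the depth of SW480 were calculated, without drawing. Filtered PETs ranged from 13885 to 222113 per library, which sets the precision. The text names the 5 pairs with most PETs per line, every pair with 2 or more PETs in at least 3 lines, the 3 anchors with most partners and the 3 windows of 1 Mb with most PETs. A pair and a window chosen in this way are not reported here. A list of colorectal cancer loci was not counted, since no hg19 annotation was used. A chromosome was called higher where its interval lay above 1 and it held at least 10 PETs of this distance. It was called lower where the interval lay below 1 and it held at least 10 other filtered PETs.

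The members and lists were chosen with earlier results of these data known. Gene names, the promoters, own PETs, neighbouring pairs and the limit of 5 PETs were chosen after values had been seen. The calculations were tested on simulated data. Alternatives covered the distance measure, denominator, anchor width, PET minimum, FDR, overlap rule, depth, ranking and window size. The tools were scipy 1.17.1, biopython 1.88, pandas 2.3.3, numpy 2.4.6, matplotlib 3.10.9 and Python 3.11.15.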

Additional observations from a re-analysis of the deposited data

How the results depend on the processing

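The order with SW480 lowest held for the share of PETs at 1 to 2 Mb under each alternative tried, and the values moved. In the order HCT116, LS513 and SW620 the share was 3.30%, 3.27% and 3.11% of all same-chromosome PETs between different anchors, 4.03%, 3.91% and 3.72% with anchors under 20 kb, and 2.70%, 2.88% and 2.70% at anchors overlapping in all 4 lines. In the order HCT116, LS513, SW480 and SW620 it was 0.323%, 0.509%, 0.176% and 0.526% of all same-chromosome PETs, 0.703%, 0.925%, 0.192% and 0.665% in pairs with 2 or more PETs, and 6.94%, 9.84%, 3.52% and 7.87% with each pair counted once. Without pairs of 5 or more PETs it was 3.61% in HCT116 and 3.62% in LS513. The share of pairs with 2 or more PETs became 0.778%, 1.61%, 0% and 0.982% for 3 or more PETs, and 7.37% in LS513 and 4.62% in SW620 with anchors under 20 kb. At the depth of SW480 it was 1.84% in HCT116, 1.56% in LS513 and 1.28% in SW620, where SW480 was no longer the lowest. An FDR under 0.05 took 100% of pairs in every line.

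The share found in another line was 17.2%, 6.65%, 0% and 0.0614% with identical anchors, 51.6%, 31.7%, 44.4% and 33.0% for pairs with 2 or more PETs, and 4.28%, 3.71%, 3.25% and 3.19% at the depth of SW480. Chromosomes above 1 numbered 4 in HCT116 with each pair counted once, and 0 in SW480 and 3 in SW620 with 2 or more PETs. Ratios crossed 1 with each pair counted once on chromosomes 9 (1.04) and X (0.965) in LS513 and 22 (0.964) in SW620. With 2 or more PETs they crossed on chromosome 17 in HCT116 (1.01) and SW620 (1.07), 10 in LS513 (0.864) and 19 in SW480 (0) and SW620 (0.817). At 18 to 19 Mb of chromosome 22 the ratios of SW620 to HCT116 (0.963) and to LS513 (0.874) fell below 1 without pairs of 5 or more PETs. At 31 to 32 Mb of chromosome 6 those of HCT116 (1.71) and LS513 (1.49) to SW620 stayed above 1. Of the leading anchors, 0 stayed in the first 3 by PETs in HCT116, LS513 and SW620, and 0 per kb in each line. The 3 leading windows held 3.14%, 2.95% and 2.64% of PETs at 500 kb and 5.06%, 4.79% and 4.66% at 2 Mb in HCT116, LS513 and SW620. The alternatives without pairs of 5 or more PETs, without 28 to 34 Mb of chromosome 6, without the pair from MICD to MICB, and the share with each pair counted once were chosen after seeing the data. The causes were not tested. No paired analysis was possible because each line had 1 library. SW480's 256 PETs limit what can be seen there.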
